A study of Mus musculus with 3 samples.

Results

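Amino acid transporters are membrane proteins of the solute carrier superfamily. The 10 genes described here encode transporters of the cell surface and were taken as a named list: Slc7a5, Slc3a2, Slc43a1, Slc7a1, Slc7a3, Slc1a4, Slc1a5, Slc38a1, Slc38a2 and Slc6a9. These genes, and the lists set beside them below, were chosen with earlier results of these data known. All 10 were measured, by 19 probe sets that name one of them alone, out of 18193 genes and 45037 probe sets in all. The cells were NIH3T3, immortalized mouse embryo fibroblasts of the NIH/Swiss strain, and RNA of mtYAP-overexpressing, wild-type YAP-overexpressing and control cells was hybridized to 3 Affymetrix GeneChip arrays, a single array per condition. YAP is the transcriptional coactivator restrained by the Hippo pathway, and in mtYAP (S112A) the serine at residue 112, a target of the LATS kinases, is replaced by alanine. All cells were grown in medium with 10% calf serum. The paper used the arrays to study growth at confluence, where both YAP lines kept growing, but its array methods give no cell density. The part of growth or density in the results below was not tested. Both overexpressing lines were made by retroviral infection and puromycin selection, whereas the label of the control says untransduced. An empty-vector virus is also described in the methods, without word of which control was put on the array, so that infection and selection cannot be told apart from YAP in any difference from control.

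Cells take up amino acids through transporters with overlapping substrates. System L carriers exchange large neutral amino acids such as leucine, the CAT carriers take up arginine and lysine, the ASC carriers exchange small neutral amino acids and glutamine, and the SNAT carriers of system A and N move glutamine and alanine together with sodium. In mammalian cells, many of these genes are known to be transcribed at a higher rate through the factor ATF4 when amino acids run short, and MYC is known to raise the uptake of glutamine and leucine in proliferating cells.

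The values are log2 levels, so a difference of 1 is 2-fold, and with no replicates no difference has an error or a test. Fibroblast markers reached a level of 6, taken here as clearly measured, on all 3 arrays for 9 of 9 genes, and 0 of 8 markers of embryonic stem cells, 0 of 6 of epithelium, 0 of 3 of blood and 0 of 3 of endothelium did so on any array. The stem cell markers were looked at because 1 free-text label of the control array mentions an unrelated study of such cells. Of the fibroblast markers, 4 of 9 were more than 2-fold lower in mtYAP (Pdgfrb at -2.62, Pdgfra at -2.41, S100a4 at -1.68 and Thy1 at -1.67) and 1 of 9 in YAP (Pdgfrb at -1.095). Of all genes, 4.06% were so in mtYAP and 1.26% in YAP. Of genes reaching a level of 6 on at least 1 array, 8.22% and 2.3% were. The part of these markers in the results below was not tested. In such bulk RNA, fewer cells of a type and less RNA per cell cannot be told apart. Yap1 itself read 7.89 in mtYAP, 8.06 in YAP and 8.57 in control, and since no source used here says whether its probe sets lie in the coding sequence carried by the vectors, this checks neither label.

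Of the 10 transporters, 6 stood above control in both lines, led by Slc7a5 and Slc7a1. Of all 18193 genes, 9418 stood above control in mtYAP and 8727 in YAP, so a count of 6 says little by itself. The other 4 read below it by their means, and of these only Slc38a2 passed 2-fold, in mtYAP. Slc7a3 and Slc43a1 did not reach a level of 6, and the probe sets of Slc38a1 disagreed in mtYAP. Of the 10 genes, 4 stood more than 2-fold above control in mtYAP (Slc7a5, Slc7a1, Slc1a5 and Slc6a9) and 1 more than 2-fold below (Slc38a2), where 3.77% of all genes stood above and 4.06% below. In YAP, 3 stood more than 2-fold above control (Slc7a5, Slc7a1 and Slc1a5) and 0 below, where 1.36% and 1.26% of all genes did. The median of the 10 was 0.78 in mtYAP and 0.56 in YAP, beside 0.02 and -0.003 over all genes. At a lower log2 limit of 0.72, 5 of 10 passed in mtYAP and 5 of 10 in YAP, against 6.85% and 2.95% of all genes. Both comparisons rest on the same control array, so they are not separate evidence. Because the 10 genes were chosen with earlier results of these data known, the counts and medians describe this list. Set beside those of all genes, they do not measure an excess.

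**Figure D1:**
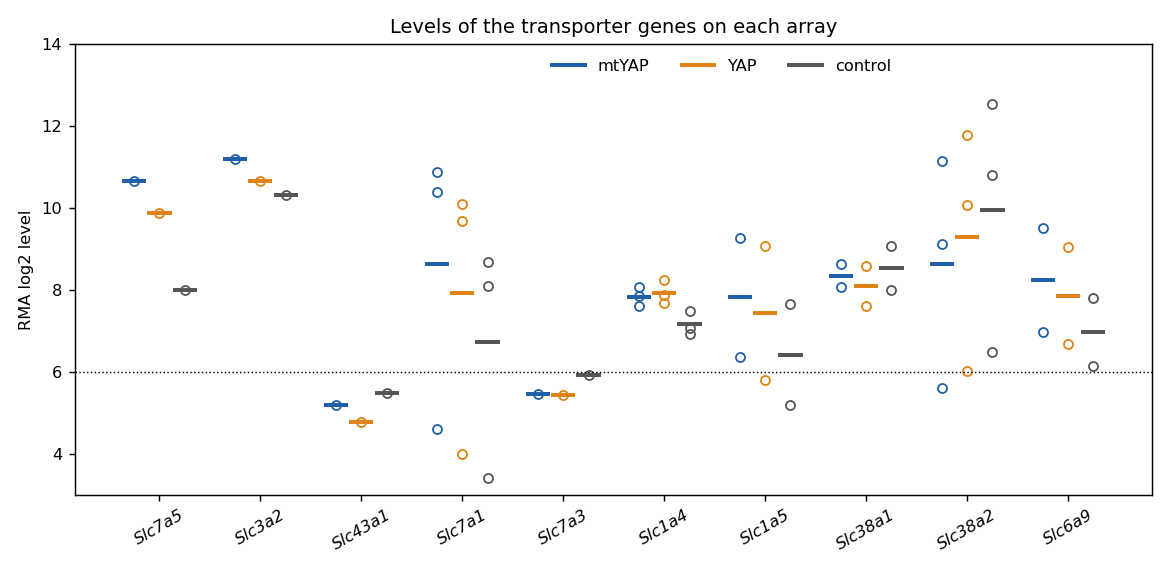
RMA log2 level (vertical axis) of the 10 transporter genes on the mtYAP, YAP and control arrays, 1 array each. Open circles are single probe sets, bars their mean, and the dotted line marks a level of 6. Slc7a5 stands at 10.66 in mtYAP, 9.88 in YAP and 8.0 in control, whereas Slc38a2 is lowest in mtYAP. Levels are comparable between arrays within a gene, not between genes.

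Promoter sequences from RefSeq (GRCm38.p6) were listed for 6 of the 10 genes, with 9 windows of 300 bases that run from 250 bases before to 50 after an annotated start. Slc7a5, Slc7a3, Slc1a5 and Slc38a1 had none in the table used. Each window was searched on both strands for TGATGNAA, the core of the response element bound by C/EBP and ATF factors, for CACGTG, the E-box bound by MYC and MAX, and for GGAATG, the motif bound by TEAD factors, which do not overlap in these windows. The windows shown are those of Slc7a1 and Slc38a2, the genes with a listed promoter that stood furthest above and below control, and those of Slc1a4 and Slc43a1, the genes with a response element core or an E-box. A further window of Slc7a1, starting at base 148392766, held no match and is not shown. Capitals mark the motif matches.
Slc7a1 (chr5:148399855-148400154, minus strand): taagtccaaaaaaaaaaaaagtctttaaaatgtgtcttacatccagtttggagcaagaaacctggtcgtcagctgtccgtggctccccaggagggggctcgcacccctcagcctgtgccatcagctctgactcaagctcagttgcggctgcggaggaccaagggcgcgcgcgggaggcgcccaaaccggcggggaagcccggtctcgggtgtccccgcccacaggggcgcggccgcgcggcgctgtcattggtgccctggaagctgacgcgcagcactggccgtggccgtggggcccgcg
Slc38a2 (chr15:96699679-96699978, minus strand): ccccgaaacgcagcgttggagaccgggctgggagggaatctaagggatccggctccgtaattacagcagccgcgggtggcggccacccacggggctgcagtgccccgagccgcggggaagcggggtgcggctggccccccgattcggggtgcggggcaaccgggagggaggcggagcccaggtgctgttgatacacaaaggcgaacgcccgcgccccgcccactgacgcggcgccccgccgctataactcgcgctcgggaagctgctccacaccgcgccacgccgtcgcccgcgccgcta
Slc1a4 (chr11:20332664-20332963, minus strand): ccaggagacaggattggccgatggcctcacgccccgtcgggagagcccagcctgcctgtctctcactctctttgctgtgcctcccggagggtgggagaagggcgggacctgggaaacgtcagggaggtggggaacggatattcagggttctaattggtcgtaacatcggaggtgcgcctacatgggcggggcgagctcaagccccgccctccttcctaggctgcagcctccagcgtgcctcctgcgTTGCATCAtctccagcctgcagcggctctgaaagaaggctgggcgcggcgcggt
Slc43a1 (chr2:84840073-84840372, plus strand): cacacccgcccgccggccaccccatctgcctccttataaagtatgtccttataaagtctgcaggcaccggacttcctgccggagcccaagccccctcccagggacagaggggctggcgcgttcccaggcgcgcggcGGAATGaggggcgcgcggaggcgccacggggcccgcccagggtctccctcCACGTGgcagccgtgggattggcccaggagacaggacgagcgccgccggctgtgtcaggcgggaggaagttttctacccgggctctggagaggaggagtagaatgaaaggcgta

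The response element core was found in 1 of the 9 windows, that of Slc1a4, where TTGCATCA, its reverse complement, begins 4 bases before the start. Of all 32851 windows, 3.97% hold it. The E-box was found in 1 window, that of Slc43a1, at 64 bases before the start, and in 7.15% of all windows. The TEAD motif was found in 2 windows, that of Slc43a1, at 114 bases before the start, and 1 of the 3 windows of Slc6a9, and in 14.7% of all windows. The windows of Slc7a1, Slc3a2 and Slc38a2 held none of these letters. A match is only a stretch of letters, and binding was not measured here.

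Among the transporters of large neutral amino acids, Slc7a5 had the largest difference from control of the 10 genes, and its partner Slc3a2 a smaller one. Slc7a5 encodes LAT1, the light chain that exchanges leucine and other large neutral amino acids for glutamine. It was read by 1 probe set (1418326_at) at 10.66 in mtYAP, 9.88 in YAP and 8.0 in control. It stood 2.66 (6.32-fold) above control in mtYAP and 1.88 (3.68-fold) in YAP, and by these differences Slc7a5 ranked 46 of all genes from the top in mtYAP and 41 in YAP. Slc3a2 encodes the heavy chain 4F2hc (CD98), which brings LAT1 to the cell surface and is joined to it by a disulfide bond. Its probe set (1425364_a_at) read 11.19 in mtYAP, 10.65 in YAP and 10.31 in control, so that Slc3a2 was already at a high signal in control. The differences were 0.88 (1.84-fold) in mtYAP and 0.34 (1.27-fold) in YAP, under the 2-fold limit in both. Both chains of LAT1 thus stood above control and in the order mtYAP, YAP, control, and the light chain was further from control than the heavy chain on each array. Slc43a1, which encodes LAT3, a carrier of branched-chain amino acids that needs no heavy chain, read 5.20 in mtYAP, 4.78 in YAP and 5.48 in control. With no array at 6 its differences of -0.28 and -0.70 are uncertain.

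The heavy chain also pairs with other light chains, and these did not move as one group. Slc7a6 (y+LAT2) read 7.60 in mtYAP, 7.975 in YAP and 7.96 in control. Slc7a11 encodes xCT, which imports cystine in exchange for glutamate, and read 4.87 in mtYAP, 4.45 in YAP and 2.94 in control. That is 1.93 and 1.51 above control, but below a level of 6 on every array. Slc7a7, Slc7a8 and Slc7a10 were below 6 on every array too, with differences between -0.37 and 0.46 in mtYAP. Slc7a5 was thus the light chain of this heavy chain that was both clearly measured and more than 2-fold above control.

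By the pair of its differences, the 3 genes closest to Slc7a5 among the 7129 genes that reached a level of 6 on at least 1 array were Chac1, a glutathione-degrading enzyme, at 2.74 in mtYAP and 1.86 in YAP, Gja1, a gap junction protein of the connexin family, at 2.70 and 1.77, and Cyb5r1, a cytochrome b5 reductase, at 2.77 and 1.98. Their Euclidean distances were 0.082, 0.12 and 0.15 on the log2 scale. The likeness is over 3 arrays only.

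Of the cationic amino acid transporters, Slc7a1 stood above control in both lines and Slc7a3 stayed below a level of 6 on every array. Slc7a1 encodes CAT1, the widely expressed carrier of arginine and lysine. Averaged over its 3 probe sets, it read 8.62 in mtYAP, 7.92 in YAP and 6.74 in control, differences of 1.89 (3.70-fold) and 1.18 (2.27-fold). Its brightest probe set (1454991_at) read 10.88 in mtYAP, 10.09 in YAP and 8.69 in control. A neighbouring one (1454992_at) read 10.38, 9.67 and 8.10. The third (1421533_at), at 4.61, 4.00 and 3.42, lay below 6 throughout and ran the same way. The mean is therefore pulled down by a dim probe set, and the clearly measured ones gave 2.19 and 2.28 in mtYAP and 1.40 and 1.57 in YAP. Slc7a3, which encodes CAT3, read 5.45 in mtYAP, 5.44 in YAP and 5.93 in control, and its differences of -0.48 and -0.49 are uncertain at that level. Slc7a2, which encodes CAT2, read 5.78 in mtYAP, 4.55 in YAP and 3.965 in control over its 4 probe sets, a mean difference of 1.815 in mtYAP and 0.59 in YAP. Its brightest probe set (1436555_at) read 8.56 in mtYAP, 7.53 in YAP and 6.63 in control, differences of 1.93 and 0.90, and the other 3 stayed below 6.

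**Figure D2:**
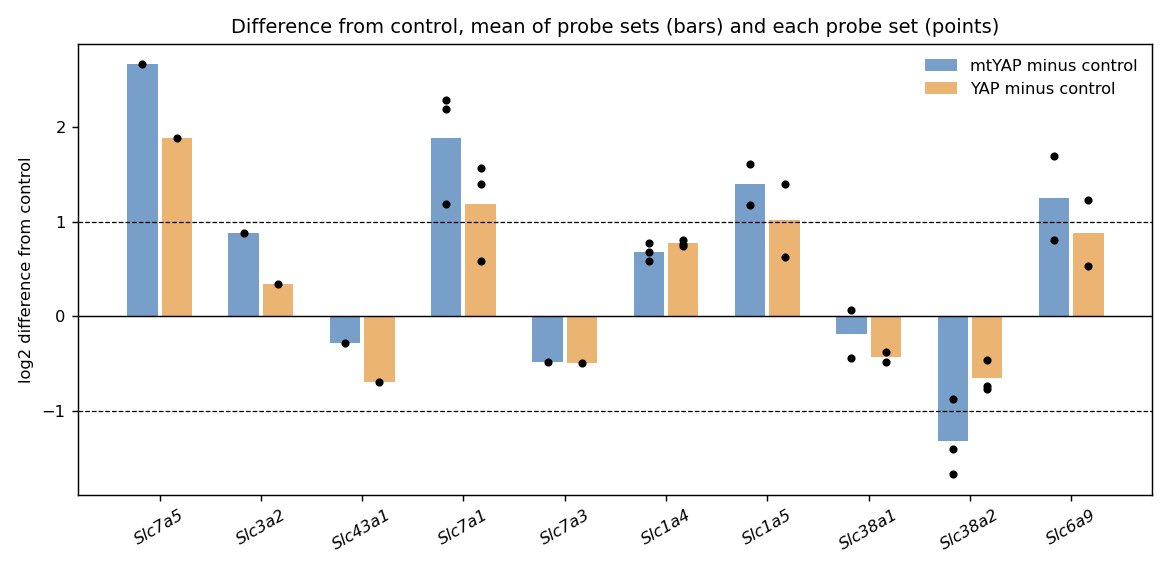
Log2 difference from control (vertical axis) of each transporter gene in mtYAP (blue) and YAP (orange). Bars are means over probe sets, points are single probe sets, and dashed lines mark 2-fold. Slc7a5, Slc7a1 and Slc1a5 pass the upper line in both lines, Slc6a9 only in mtYAP by its mean, and Slc38a2 passes the lower line in mtYAP.

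The ASC transporters Slc1a4 and Slc1a5 stood above control in both lines. Slc1a5 encodes ASCT2, a main route of glutamine into proliferating cells. Over its 2 probe sets it read 7.815 in mtYAP, 7.435 in YAP and 6.42 in control, differences of 1.395 (2.63-fold) and 1.015 (2.02-fold). Its brighter probe set (1416629_at) read 9.27 in mtYAP, 9.06 in YAP and 7.66 in control. The dimmer one (1440379_at) read 6.36, 5.81 and 5.18. Both ran in the order mtYAP, YAP, control, and the YAP difference was 1.40 in the brighter and 0.63 in the dimmer, on either side of the 2-fold limit. Slc1a4 encodes ASCT1, which exchanges alanine, serine, cysteine and threonine. It read 7.84 in mtYAP, 7.93 in YAP and 7.16 in control, differences of 0.68 (1.60-fold) and 0.77 (1.71-fold). Its 3 probe sets lay between 0.58 and 0.77 in mtYAP and between 0.74 and 0.81 in YAP, the narrowest spread of the genes with 3 probe sets.

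Slc38a2 was the one of the 10 genes more than 2-fold below control in mtYAP, and its relative Slc38a1 stood below control by less. Slc38a2 encodes SNAT2, the system A carrier of small neutral amino acids. Over its 3 probe sets it read 8.63 in mtYAP, 9.28 in YAP and 9.94 in control. The differences were -1.31 in mtYAP, to 0.402 of the control signal, and -0.66 in YAP, to 0.634 of it. From the bottom of all genes it ranked 428 in mtYAP and 563 in YAP. The brightest probe set (1426722_at) read 11.14 in mtYAP, 11.77 in YAP and 12.54 in control. The second (1429593_at) read 9.13, 10.06 and 10.80, and the third (1429594_at) 5.61, 6.02 and 6.48. All 3 were lowest in mtYAP and highest in control, with differences from -1.67 to -0.87 in mtYAP and from -0.77 to -0.46 in YAP. Slc38a1 encodes SNAT1, a glutamine carrier, and read 8.34 in mtYAP, 8.095 in YAP and 8.525 in control, differences of -0.185 and -0.43. Its 2 probe sets disagreed in mtYAP, with 0.07 in one (1415903_at) and -0.44 in the other (1454764_s_at), and stood at -0.38 and -0.48 in YAP.

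Slc6a9 encodes GLYT1, a sodium- and chloride-dependent carrier of glycine. It read 8.23 in mtYAP, 7.86 in YAP and 6.98 in control, differences of 1.25 (2.38-fold) and 0.88 (1.84-fold). The brighter probe set (1417636_at) read 9.50 in mtYAP, 9.04 in YAP and 7.81 in control. The dimmer one (1431812_a_at) read 6.96, 6.68 and 6.15. The brighter one was more than 2-fold above control in both lines, at 1.69 and 1.23, and the dimmer one in neither, at 0.81 and 0.53, so whether Slc6a9 passes 2-fold in YAP depends on the probe set.

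Counted singly, 7 of the 19 probe sets were more than 2-fold above control in mtYAP and 2 more than 2-fold below, where 4.61% and 4.67% of all 34945 probe sets of a single gene did. In YAP, 5 stood above 1 and 0 below -1, where 1.69% and 1.5% did. Of the 6 genes with several probe sets, 5 had them all on the same side of control in mtYAP, and Slc38a1 was the exception. Among the 8 genes that reached a level of 6 on at least 1 array, 4 passed 2-fold upward in mtYAP and 3 in YAP (medians 1.065 and 0.825), where 7.66% and 2.72% of all genes at that level did. The genes that did not reach it were Slc7a3 and Slc43a1.

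Set directly against wild-type YAP, mtYAP cells read higher in most of these genes, by less than 2-fold in each. None of the 10 differed by more than 2-fold between mtYAP and YAP, where 0.748% of all genes stood above 1 and 1.42% below -1. Of the 10, 8 were higher in mtYAP, where 53.3% of all genes were, with a median difference of 0.375 (mtYAP minus YAP). The differences were 0.78 for Slc7a5 (1.72-fold), 0.70 for Slc7a1 (1.63-fold), 0.54 for Slc3a2 (1.45-fold), 0.38 for Slc1a5 and 0.37 for Slc6a9. Slc7a3 differed by only 0.01, within the rounding of the values. Those lower in mtYAP were Slc38a2 at -0.66 and Slc1a4 at -0.09. The 3 probe sets of Slc7a1 spanned 0.61 to 0.79 in this comparison and those of Slc38a2 spanned -0.93 to -0.41, so their direction was common to all their probe sets.

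**Figure D3:**
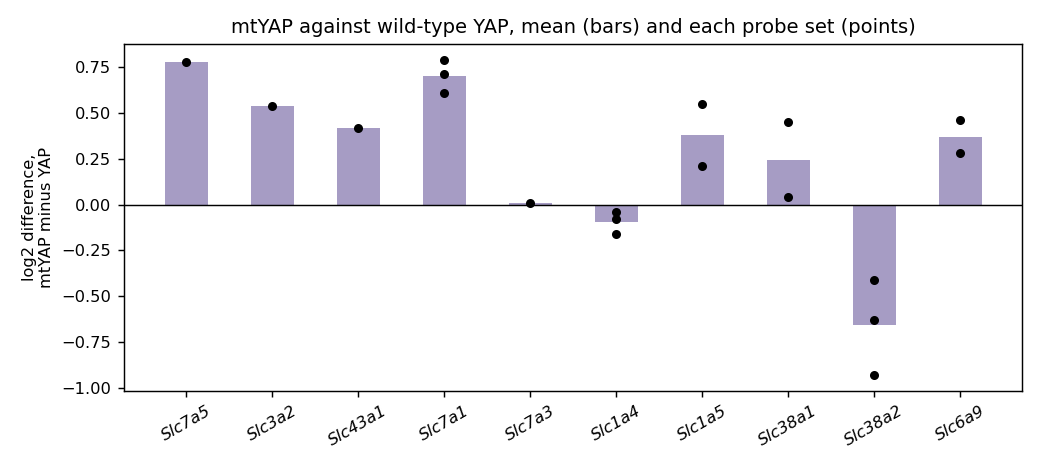
Log2 difference between the mtYAP and YAP arrays (vertical axis, mtYAP minus YAP) of each transporter gene. Bars are means over probe sets and points single probe sets. Slc7a5 and Slc7a1 are highest at 0.78 and 0.70 and Slc38a2 lowest at -0.66. This comparison does not use the control array.

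The order of levels mtYAP, YAP, control from high to low held for 5 of the 10 genes, Slc7a5, Slc3a2, Slc7a1, Slc1a5 and Slc6a9, where 25.6% of all genes and 31.2% of those reaching a level of 6 had it. For these 5 genes the log2 difference in YAP was 70.7% of that in mtYAP for Slc7a5, 38.6% for Slc3a2, 62.7% for Slc7a1, 72.8% for Slc1a5 and 70.4% for Slc6a9. The opposite order held for Slc38a2 alone, where 22.7% of all genes had it, and its difference in YAP was 50% of that in mtYAP. Neighbouring levels such as those of Slc1a4 in YAP and mtYAP, 0.09 apart, cannot be ordered without replicates.

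Of 34 other amino acid transporters of the cell surface that were listed, 33 were measured. In mtYAP 3 of them (9.09%) stood above 1 and 1 (3.03%) below -1, beside 3.77% and 4.06% of all genes. In YAP 2 (6.06%) stood above 1 and 1 (3.03%) below -1, beside 1.36% and 1.26% of all genes. Their median was 0.01 in mtYAP and -0.02 in YAP, but most were not clearly measured, and the 6 that reached a level of 6 had medians of -0.39 and -0.295. Slc6a15, which encodes B0AT2, a sodium-dependent carrier of branched-chain amino acids and proline, read 6.55 in mtYAP, 5.78 in YAP and 3.29 in control, differences of 3.26 and 2.49 that start from a control level near the background. The others above 1 were Slc7a11 in both lines, whose 2 probe sets were below 6 on every array, and Slc7a2 in mtYAP, clearly measured by 1 of its 4 probe sets. Slc1a3, which encodes the glutamate and aspartate carrier EAAT1 (GLAST), read 5.53 in mtYAP, 6.01 in YAP and 7.05 in control, at -1.52 and -1.04. Among the 289 remaining measured genes with an Slc symbol, 11 stood above 1 and 7 below -1 in mtYAP, with a median of 0.01, and 1 and 4 in YAP, with a median of -0.04.

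The listed transporters inside the cell stood within 2-fold of control, as did most genes. Of all genes, 3.77% stood more than 2-fold above control and 4.06% below it in mtYAP, and 1.36% and 1.26% in YAP. At those shares, lists this short could hold no gene past 2-fold. Of 7 transporters of the lysosomal membrane, 0 passed 2-fold in either direction, and the medians were -0.25 in mtYAP and -0.165 in YAP. The 4 of them that reached a level of 6 had medians of -0.805 and -0.45. Slc36a1 (PAT1) was furthest from control in mtYAP at -0.95, and Ctns, the cystine exporter cystinosin, stood at -0.89 in mtYAP and -0.92 in YAP. Of 12 amino acid carriers of mitochondria, 0 passed 2-fold, and the medians were 0.125 in mtYAP and -0.12 in YAP. Sfxn1, a serine carrier, stood at 0.615 and 0.42 and Slc25a13, an aspartate and glutamate carrier, at 0.64 and 0.22.

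Genes through which amino acids act on mTORC1, the kinase complex that couples nutrient supply to growth, read below control more often than above it. Of 31 listed, 30 were measured. Of these, 22 read below control in each line, where 46.5% of all genes in mtYAP and 50.2% in YAP did. The medians were -0.24 in mtYAP and -0.18 in YAP. More than 2-fold above control stood 0 of the 30, where 3.77% of all genes in mtYAP and 1.36% in YAP did. Those below -1 were Sesn3, a sestrin, at -1.97 in mtYAP and -1.64 in YAP, and Fnip2, a partner of folliculin, at -1.66 and -1.36. These 2 were 6.67% of the 30, beside 4.06% of all genes below -1 in mtYAP and 1.26% in YAP. The sestrins Sesn2 and Sesn1 bind leucine. Sesn2 differed from control by 0.78 and 0.645 in mtYAP and YAP, whereas Sesn1 differed by -0.99 and -0.21.

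In the amino acid response, the pathway from the kinase GCN2 through ATF4, 3 of 8 genes passed 2-fold upward in each line, where 3.77% of all genes in mtYAP and 1.36% in YAP did, and the medians were 0.80 in mtYAP and 0.795 in YAP. They were Trib3, a pseudokinase, at 3.57 and 2.85, Chac1, and Asns, the asparagine synthetase, at 2.015 and 1.575. Ddit3, averaged over 2 probe sets, stood just under the limit in mtYAP at 0.96 and at 0.525 in YAP. The paper lists Ddit3 as more than 2-fold above control in both lines, so the count depends on how probe sets are read. Atf4 itself read 8.79 in mtYAP, 8.86 in YAP and 8.16 in control, a difference of 0.63 and 0.70. Eif2ak4, which encodes GCN2, read 5.12 in mtYAP, 5.43 in YAP and 6.385 in control, the member below -1 in mtYAP at -1.265 and at -0.955 in YAP. In this list as in the transporters, genes of the pathway stood on both sides of control.

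**Figure D4:**
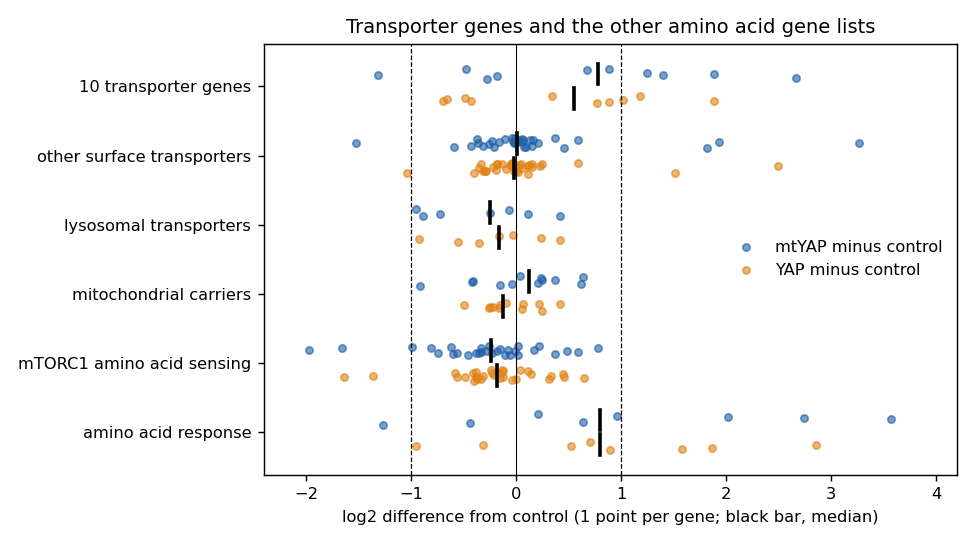
Genes of 6 lists (rows), each point a gene at its log2 difference from control on the horizontal axis, blue for mtYAP and orange for YAP. Black bars are medians and dashed lines mark 2-fold. The vertical scatter within a row has no meaning. The 10 transporter genes have medians of 0.78 and 0.56, against 0.01 and -0.02 for the other surface transporters. All lists were chosen with earlier results of these data known.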

How the data were processed

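Each of the 3 conditions was measured on 1 Affymetrix GeneChip array of the mouse genome. The authors subtracted the background and normalized by robust multiarray analysis, and deposited log2 levels for each probe set. RMA and affy are named in the submitters' processing notes, without versions, and no source used here says whether further arrays entered the normalization. Array medians were 4.57 in mtYAP, 4.56 in YAP and 4.60 in control. Having a single array for each condition limits the precision.

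Of 45037 probe sets, 34945 carry 1 gene symbol in the platform annotation and were used, whereas 932 with several and 9160 with none were left out. Entrez identifiers of 18032 of 18193 genes were found in the RefSeq table of GRCm38.p6, and no symbol changed. No probe set names a transporter gene described here together with another gene. Probe sets of a gene were averaged, the control level was subtracted, and genes above 1 or below -1 were counted, with no test. The genes and lists were chosen with earlier results of these data known. The rule for naming took all 10 genes, each list gene past 2-fold, up to 12 a list, and the 3 nearest to Slc7a5; any other list gene was named with its value known. The counting code was run on simulated data whose planted differences all lay past the limit. That checks the code only and says nothing of the reliability of counts on single arrays. Python 3.11.15, numpy 2.4.6, pandas 2.3.3, statsmodels 0.14.6 and matplotlib 3.10.9 were used. As alternatives, a gene was read by its brightest probe set or by whichever passed, probe sets ending in _s, _x or _a or under a level of 6 were dropped, the median difference or a loess (span 0.3) was taken off, and the limit was lowered to 0.72.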

Additional observations from a re-analysis of the deposited data

How the results depend on the processing

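No paired analysis was possible because each condition has 1 array. The 4 genes above 2-fold in mtYAP stayed 4 in number under the 6 alternatives that keep the 2-fold limit and were 5 at a log2 limit of 0.72. In YAP the count of 3 was 2 to 4 under those 6 and 5 at 0.72. Slc1a5 in YAP was 0.99 after removal of the loess, and Slc6a9 in YAP was 1.23 in its brighter probe set. Between mtYAP and YAP, the median of 0.375 was 0.315 to 0.455 over the 6. The count of genes higher in mtYAP, 8 of 10, was 7 of 10 with the median difference removed. It was 7 of 9 without probe sets ending in _s, _x or _a, 6 of 8 at a level of at least 6, and 8 of 10 otherwise. With probe sets limited to a level of at least 6, which leaves 8 of the 10 genes, the medians moved to 1.065 in mtYAP and 0.825 in YAP. That limit leaves 9 of the 33 other surface transporters, whose medians were then -0.36 in mtYAP and -0.30 in YAP, and in YAP 1 above and 0 below 2-fold. With any probe set allowed to pass, 2 of the other surface transporters were below 2-fold in mtYAP. Of the 10 genes, none past 2-fold changed direction under the alternatives run; the other genes named were not followed singly. Low signal limits Slc7a3, Slc43a1 and most of the other surface transporters.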
